A study of Mus musculus with 3 samples.

Results

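The 10 genes described here encode enzymes of glycolysis and of the step that follows it: the hexokinases Hk1 and Hk2, the regulatory enzyme Pfkfb3, the aldolases Aldoa and Aldoc, Gapdh, Pgk1, Pkm, and the lactate dehydrogenase subunits Ldha and Ldhb. They were taken by symbol from the 32285 genes named in the count matrices, and all 10 were found. They were followed in rod and cone photoreceptors, bipolar cells, Müller glia, endothelial cells and the mural cells of vessels (pericytes and smooth muscle), and at 3 ages. The data were 3 droplet single-cell RNA libraries of retina from C57BL/6JRj mice, enriched with magnetic beads for the endothelial surface protein CD31. The young library came from mice of 3 months, the adult library from mice of 12 months and the old library from mice of 23 months, with 2 mice pooled in each. Each age is therefore a single library of pooled animals, no difference between ages has a replicate, and no test was run. Intervals in the text are 95% intervals that cover counting error only.

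Glycolysis splits glucose into pyruvate, and lactate dehydrogenase turns pyruvate into lactate while it restores the cofactor that the Gapdh step needs. The retina is known for forming lactate from glucose even when oxygen is present, and photoreceptors are regarded as the main site of this. Several steps have isozymes from separate genes. Hexokinase 1 is the common form of neurons and hexokinase 2 is the form associated with high glycolytic rates. Aldolase A is widespread and aldolase C is the form of brain and of many glia. The Ldha subunit is associated with lactate formation and the Ldhb subunit with lactate use.

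Promoter windows of 4 of the genes are shown because they belong to the isozymes that differed most between classes, and to Ldha, the partner of Ldhb. RefSeq windows on GRCm38.p6 run from 250 bases before to 50 after a start site. They matched all 10 members, with 17 windows in all, and the most upstream one is printed for each of the 4. Capitals mark ACGTG, the core of the hypoxia response element, read on either strand (CACGT is the other strand, and CACGTG holds both), and TAATCC, a core bound by the photoreceptor factor CRX. The windows are Hk2 chr6:82774405-82774704 (minus strand), Ldha chr7:46845554-46845853 (plus strand), Ldhb chr6:142507908-142508207 (minus strand) and Aldoc chr11:78322823-78323122 (plus strand).
Hk2: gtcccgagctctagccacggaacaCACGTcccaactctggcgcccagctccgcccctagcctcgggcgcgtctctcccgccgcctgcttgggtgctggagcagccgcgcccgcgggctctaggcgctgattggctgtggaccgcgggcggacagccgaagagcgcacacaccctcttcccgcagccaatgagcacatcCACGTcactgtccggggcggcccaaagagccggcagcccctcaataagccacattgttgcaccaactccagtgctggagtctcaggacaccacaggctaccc
Ldha: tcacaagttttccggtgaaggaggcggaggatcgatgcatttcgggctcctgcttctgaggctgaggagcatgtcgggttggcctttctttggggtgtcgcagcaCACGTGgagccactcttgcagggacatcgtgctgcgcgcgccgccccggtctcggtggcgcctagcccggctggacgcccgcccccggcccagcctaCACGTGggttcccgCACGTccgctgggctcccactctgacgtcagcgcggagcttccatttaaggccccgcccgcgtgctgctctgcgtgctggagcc
Ldhb: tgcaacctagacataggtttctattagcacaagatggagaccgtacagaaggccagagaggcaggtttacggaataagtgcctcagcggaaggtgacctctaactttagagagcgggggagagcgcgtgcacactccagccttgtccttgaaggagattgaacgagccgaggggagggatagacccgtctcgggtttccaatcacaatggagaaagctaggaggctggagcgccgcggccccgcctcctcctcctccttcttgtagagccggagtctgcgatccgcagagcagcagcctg
Aldoc: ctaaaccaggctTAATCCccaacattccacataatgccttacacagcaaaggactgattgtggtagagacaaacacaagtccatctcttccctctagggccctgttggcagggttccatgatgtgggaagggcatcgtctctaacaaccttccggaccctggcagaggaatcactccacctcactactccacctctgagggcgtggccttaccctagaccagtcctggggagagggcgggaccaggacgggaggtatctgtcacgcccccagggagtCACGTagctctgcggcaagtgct
ACGTG was found 5 times in the Ldha window, 2 times in that of Hk2, 1 time in that of Aldoc and not in that of Ldhb, counting each strand of CACGTG. Of the most upstream windows of the 10 members, 6 held ACGTG, while 19.6% of the 32851 mouse promoter windows did. Hk1, Aldoa and Pkm lacked it there but held it in another of their windows, so the count depends on the window chosen. TAATCC was found in 1 of the most upstream windows, that of Aldoc, and in 7.06% of all windows. Another window of Ldha held it too. These are matches of letters, and binding at them was not measured.

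The libraries held 2491, 3243 and 2751 barcodes with 16577026, 19977238 and 17021820 unique molecular identifiers (UMIs, tags that count captured transcripts) in the young, adult and old library. Once barcodes with too few or too many genes or mitochondrial UMIs and called doublets were left out, 1705, 1957 and 1701 cells remained. The adult and old libraries shared 2 of the kept cell barcodes. Of 23 clusters, 13 made up the 7 classes, and the largest one left out held 630 cells with markers of both endothelial cells and pericytes. The cells were clustered without the 10 genes and the other pathway genes. They comprised, in young, adult and old order, 167, 321 and 237 rods, 70, 102 and 72 cones, 165, 167 and 136 bipolar cells, 181, 216 and 207 Müller glia, 437, 425 and 403 endothelial cells, 170, 131 and 102 pericytes and 38, 34 and 37 smooth muscle cells. In every class and library none of the class's own 8 markers (6 for smooth muscle) was at 0. The same markers had named the clusters, so this was close to given in advance. Levels are counts per 1000000 UMIs of the class in a library (CPM), and the classes rest on 291859 to 3607105 UMIs. A class level is the mean over the 3 libraries with its SD, so the spread holds age and preparation together.

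The summed level of the 10 enzymes was highest in photoreceptors and lowest in vascular cells. In rods it was 11226, 13245 and 12138 CPM in the young, adult and old library, so that over 1% of rod UMIs came from these genes. In cones it was 8656, 9613 and 10027 CPM, below every rod value. Bipolar cells had 4629, 5088 and 5999 CPM and Müller glia 4672, 4933 and 4954 CPM, and these classes overlapped. Smooth muscle cells had 1642, 2241 and 2295 CPM, pericytes 1705, 1913 and 2003 CPM and endothelial cells 1307, 1529.5 and 1812 CPM, with neighbouring ranges that overlapped. The rod mean of 12203 ± 1011 CPM (SD, n = 3 libraries) stood beside an endothelial mean of 1549 ± 253 CPM.

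**Figure D1:**
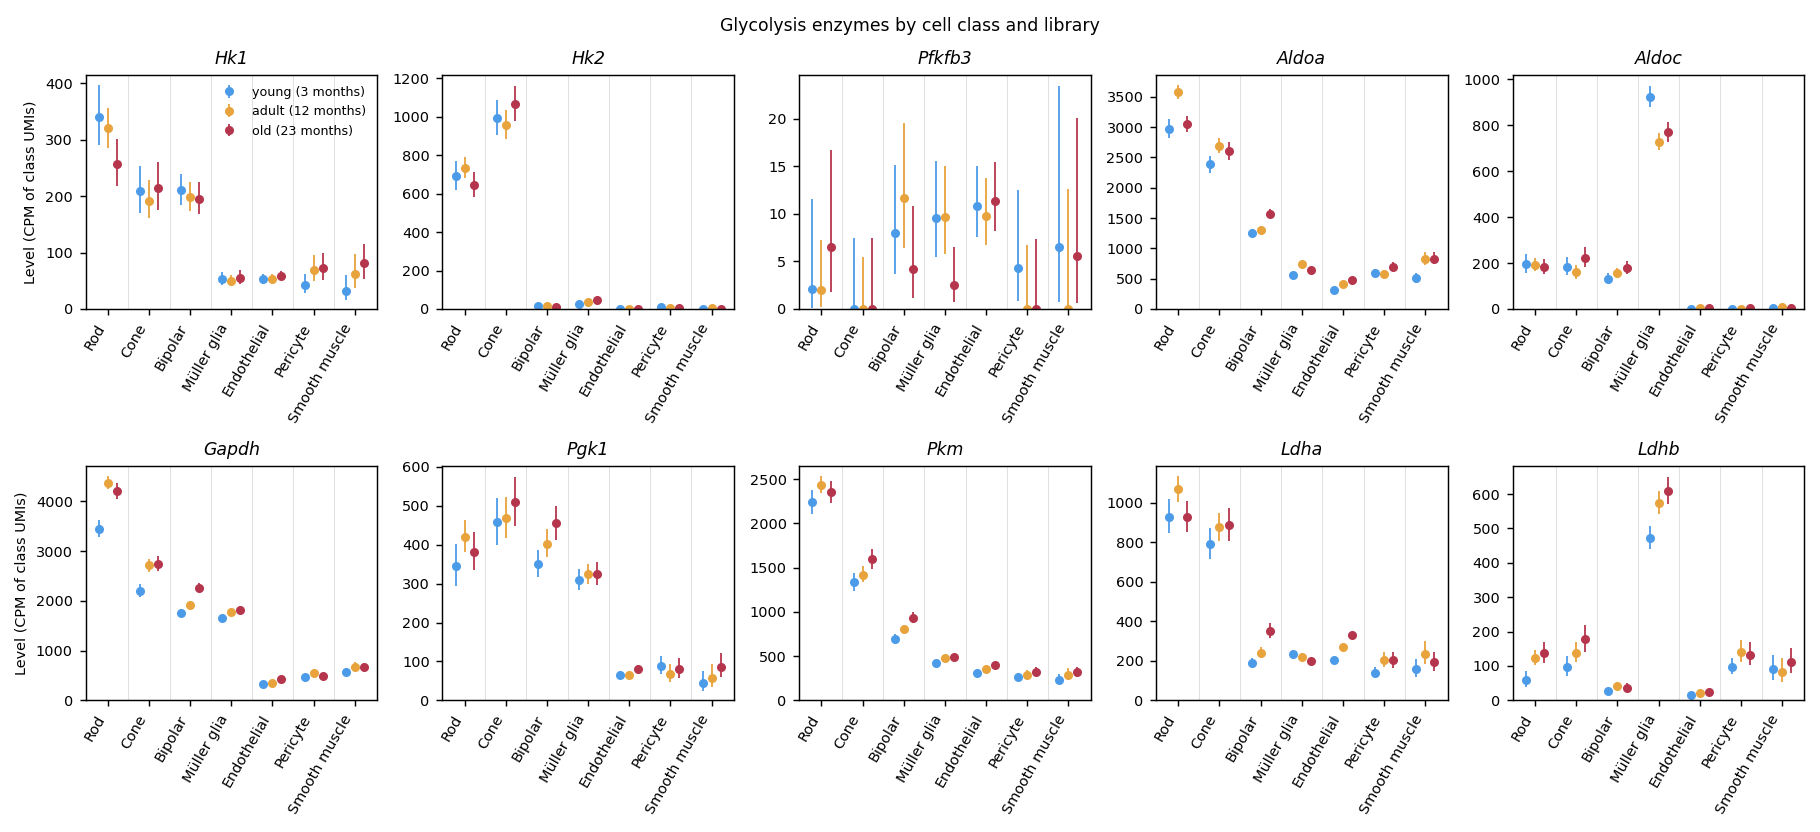
Level of each of the 10 enzymes (y axis, CPM of the class's UMIs) in 7 cell classes, with 1 point per library in the colours of the 3 ages and bars for the 95% Poisson interval of counting error. Hk2 stands at 647 to 1068 CPM in rods and cones and at 49.3 CPM or less in all other classes, while Aldoc and Ldhb are highest in Müller glia.

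Hexokinase, which traps glucose as glucose 6-phosphate, divided photoreceptors from all other classes through Hk2. Hk2 (chromosome 6, 82725025 to 82774454, minus strand) stood in cones at 995, 959 and 1068 CPM in the young, adult and old library. In rods it stood at 693, 734 and 647 CPM, below every cone value. Müller glia followed with 25.8, 34.1 and 49.3 CPM, a mean 19.0-fold below that of rods. Bipolar cells (mean 15.4 ± 2.47 CPM) and pericytes (8.12 ± 4.13) overlapped each other, and smooth muscle cells (1.14) and endothelial cells (0.770 ± 0.414) were lowest. In 437, 425 and 403 endothelial cells only 1, 3 and 4 Hk2 UMIs were counted. RNA from rods, scaled by the rod markers found in endothelial cells, would account for 0.775, 1.49 and 1.80 CPM of Hk2 there, above the 0.309, 0.893 and 1.11 CPM measured. In smooth muscle cells no Hk2 UMI was counted in the young and old library, which allows up to 9.75 and 8.35 CPM at 3 counts. A Hk2 UMI was found in 94.4 to 97.1% of cones, 67.1 to 76.9% of rods, 11.0 to 16.7% of Müller glia and 0.229 to 0.993% of endothelial cells. After each cell was thinned to 2000 UMIs, which kept 105, 216 and 143 rods and 69, 95 and 68 cones, these shares were 76.8 to 83.2% in cones, 64.8 to 70.8% in rods, 3.49 to 6% in Müller glia and 0.251% or less in endothelial cells.

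Hk1 (chromosome 10, 62268855 to 62379908, minus strand) divided neurons from all other cells and did not single out photoreceptors to the same degree. Rods had 340.5, 320.2 and 257 CPM, cones 209, 192 and 215 CPM and bipolar cells 211, 199 and 195 CPM. Rods lay above both of the other neurons, and cones and bipolar cells overlapped. Pericytes (61.5 ± 16.2), smooth muscle cells (58.3 ± 24.3), endothelial cells (55.1 ± 3.24) and Müller glia (52.8 ± 3.22) overlapped in turn, 3.28-fold or more below bipolar cells.

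The few Hk2 UMIs outside photoreceptors were unevenly spread over cells. In Müller glia 25 of 43 young, 23 of 67 adult and 46 of 77 old UMIs came from the 5 cells with most. Those cells carried rod markers at 822, 10154.5 and 8182 CPM, against 418, 1126 and 785 CPM in all Müller glia. In bipolar cells 15 of 18, 15 of 21 and 8 of 12 UMIs came from the 5 cells with most, which carried cone markers at 6661, 10717 and 1406 CPM, against 618, 767 and 527 CPM in all bipolar cells. Rod RNA, scaled by rod markers, would account for 6.43, 17.9 and 12.5 of the 25.8, 34.1 and 49.3 CPM in Müller glia.

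Pfkfb3 (chromosome 2, 11471433 to 11554077, minus strand) makes the small molecule that activates phosphofructokinase and had the lowest mean CPM of the members in 5 of the 7 classes. Endothelial cells had 10.8, 9.83 and 11.4 CPM from 35, 33 and 41 UMIs. Bipolar cells had 7.99, 11.7 and 4.23 CPM and Müller glia 9.61, 9.66 and 2.56 CPM. Bipolar cells overlapped endothelial cells, and Müller glia overlapped bipolar cells but lay just below endothelial cells. Rods (3.53 ± 2.58), smooth muscle cells (4.02 ± 3.52) and pericytes (1.43 ± 2.48) rested on 1 to 4 UMIs or none per library. In cones no UMI was counted in any library, which allows up to 6.102, 4.47 and 6.03 CPM (the level of 3 UMIs). A UMI was present in 7.32, 7.29 and 8.93% of endothelial cells. Only in that class did it reach 50 UMIs over a pair of libraries.

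Aldolase, which splits the 6-carbon sugar, had different leading classes for its 2 genes. Aldoa (chromosome 7, 126795234 to 126800751, minus strand) was the main aldolase of neurons and vessels. It stood at 2969, 3578 and 3050.4 CPM in rods and at 2384, 2689 and 2604 CPM in cones, with every rod value above every cone value. Bipolar cells had 1249, 1308 and 1574 CPM. Smooth muscle cells (722 ± 186), Müller glia (647 ± 85.1) and pericytes (622 ± 62.1) overlapped, and endothelial cells had the lowest level at 317, 409 and 482 CPM. A second identifier with the same symbol lies just upstream on the same strand (126800790 to 126809108) and held at most 2 UMIs in any class and library.

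Aldoc (chromosome 11, 78322968 to 78327781, plus strand) led in Müller glia at 925, 728 and 770.1 CPM, a mean 4.25-fold above rods. Rods (190 ± 6.69), cones (189 ± 32.2) and bipolar cells (156 ± 23.7) overlapped in turn, with bipolar cells below rods. The vascular classes had 6.85 CPM or less in every library, from 1 to 10 UMIs, and the bipolar mean was 36.2-fold above that of smooth muscle cells. In the young library 424 of the 1539 Müller Aldoc UMIs lay in 5 cells, 1 of which held 110. Those 5 cells carried the astrocyte markers Gfap at 1444 and Pax2 at 211 CPM. The 5 highest cells of the adult and old libraries held 6.91 and 12.0% of the UMIs, with Pax2 at 0 in both and Gfap at 0 and 28.1 CPM.

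Gapdh (chromosome 6, 125161715 to 125166467, minus strand), which carries out the first oxidation, had the highest mean of the members in rods, bipolar cells and Müller glia, and stood level with Aldoa in cones (2556 ± 303 and 2559 ± 158 CPM). Rods had 3455, 4373 and 4202 CPM. Cones had 2207, 2712 and 2751 CPM, bipolar cells 1753, 1912 and 2263 CPM and Müller glia 1654, 1784 and 1822 CPM, and each of these overlapped the next. Smooth muscle cells (634 ± 62.4), pericytes (503 ± 48.2) and endothelial cells (338, 349 and 423 CPM) were lower and did not overlap each other. Gapdh is often used as a reference gene, and its mean here went from 4010.0 CPM in rods to 369.9 CPM in endothelial cells.

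Pgk1 (chromosome X, 106187100 to 106203699, plus strand), the first step that yields ATP, varied little among the neurons and Müller glia. Cones had 458, 468 and 509 CPM, bipolar cells 349.6, 403 and 455 CPM, rods 345, 421 and 381 CPM and Müller glia 309, 324 and 325 CPM. Cones lay above the other classes, and bipolar cells and rods overlapped. The vascular classes had means of 63.4 to 78.8 CPM and overlapped, 4.05-fold or more below Müller glia. Gapdh, Pgk1 and Ldha have near-identical processed copies elsewhere in the mouse genome, so reads that fit several places make these levels uncertain.

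Pkm (chromosome 9, 59656368 to 59679375, plus strand), the last step to pyruvate, followed a clear order. It stood at 2240.2, 2432 and 2348 CPM in rods, at 1334, 1419.9 and 1594 CPM in cones, at 696, 801 and 929 CPM in bipolar cells and at 425, 473 and 485 CPM in Müller glia, with no overlap between these classes. Endothelial cells had 305, 350.5 and 398 CPM and overlapped pericytes (291 ± 28.1) and smooth muscle cells (281 ± 42.6). The splice forms PKM1 and PKM2 cannot be told apart in tags from the end of the transcript.

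Lactate dehydrogenase divided the classes by subunit. Ldha (chromosome 7, 46841475 to 46855627, plus strand) stood at 928, 1068 and 927 CPM in rods and at 789, 876 and 887 CPM in cones. Every other class was at least 3.20-fold below cones by mean: endothelial cells 202, 268 and 329 CPM, bipolar cells 188, 240.3 and 351 CPM, Müller glia 232, 219 and 198 CPM, smooth muscle cells 159, 236 and 192 CPM, and pericytes 140.2, 204 and 203 CPM. The ranges of these 5 classes overlapped in turn. Ldhb (chromosome 6, 142490249 to 142507957, minus strand) led in Müller glia at 472, 575 and 610.2 CPM, 4.02-fold above cones by mean. Cones (137 ± 39.7), pericytes (123 ± 22.9), rods (106 ± 42.2) and smooth muscle cells (94.9 ± 15.0) overlapped, bipolar cells had 25.7, 40.9 and 35.9 CPM, and endothelial cells were lowest at 14.5, 19.95 and 24.7 CPM.

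The isozyme pairs were then set side by side as the share of each pair's UMIs. A 3' tag library gives 1 UMI per captured transcript whatever its length, so the pair members can be compared as UMIs, although how well each transcript is captured is unknown. The hexokinase pair was mostly Hk2 in photoreceptors. The Hk2 share was 82.6, 83.3 and 83.2% in cones and 67.1% (62.7 to 71.2), 69.6% (66.7 to 72.4) and 71.5% (67.6 to 75.3) in rods. It was 32.6% (24.7 to 41.3), 40.9% (33.3 to 48.8) and 47.0% (39.1 to 54.9) in Müller glia. In bipolar cells it was 7.03, 8.11 and 6.09%, in pericytes 23.1% (9 of 39 UMIs, 11.1 to 39.3, with 6 of the 9 in 1 cell), 7.32 and 7.69%, and in endothelial cells 0.581, 1.64 and 1.85%. Smooth muscle cells had 0 of 10, 1 of 19 and 0 of 29 UMIs from Hk2, and the counts of 0 allow shares of up to 30% and 10.3% (3 UMIs of the pair). Rods exceeded Müller glia by 34.5, 28.8 and 24.6 percentage points and endothelial cells by 66.5, 68.0 and 69.7 points. The mean difference from Müller glia, 29.3 points, was 42.2 without cells that carry markers of other classes, 36.8 with rod RNA subtracted and 67.9 with free RNA subtracted.

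In the aldolase pair Aldoc reached an even share in Müller glia and stayed low in all other classes. The Aldoc share was 62.0% (60.01 to 63.9), 49.7% (47.8 to 51.5) and 54.7% (52.6 to 56.8) in Müller glia. Bipolar cells had 9.57, 10.6 and 10.2%, cones 7.13, 5.60 and 7.89%, and rods 6.17, 5.10 and 5.64%. All vascular classes were at 0.823% or less. The difference of rods from Müller glia was -55.8, -44.6 and -49.1 percentage points.

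In the lactate dehydrogenase pair Ldhb was the larger part in Müller glia alone among the 7 classes, at 67.0% (64.3 to 69.7), 72.5% (70.2 to 74.7) and 75.5% (73.1 to 77.9). The mural cells came next. Pericytes had 41.0% (33.4 to 48.9), 40.7% (33.7 to 48.1) and 39.5% (32.1 to 47.4), and smooth muscle cells 36.4, 25.8 and 36.7%. Cones had 11.0, 13.5 and 16.6%, bipolar cells 12.0, 14.5 and 9.29%, and rods 5.89, 10.4 and 12.9%. Endothelial cells held the narrowest range, at 6.71% (4.97 to 8.83), 6.93% (5.41 to 8.72) and 6.99% (5.65 to 8.53). Thus the cells of the vessel wall differed in this pair, with pericytes at a mean of 40.4 ± 0.777% and endothelial cells at 6.88 ± 0.143% (SD, n = 3 libraries). Rods differed from Müller glia by -61.1, -62.1 and -62.7 percentage points and from endothelial cells by -0.820, 3.46 and 5.88 points. The mean difference from endothelial cells, 2.84 points, turned to -2.90 with classes from each cell's own markers.

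**Figure D2:**
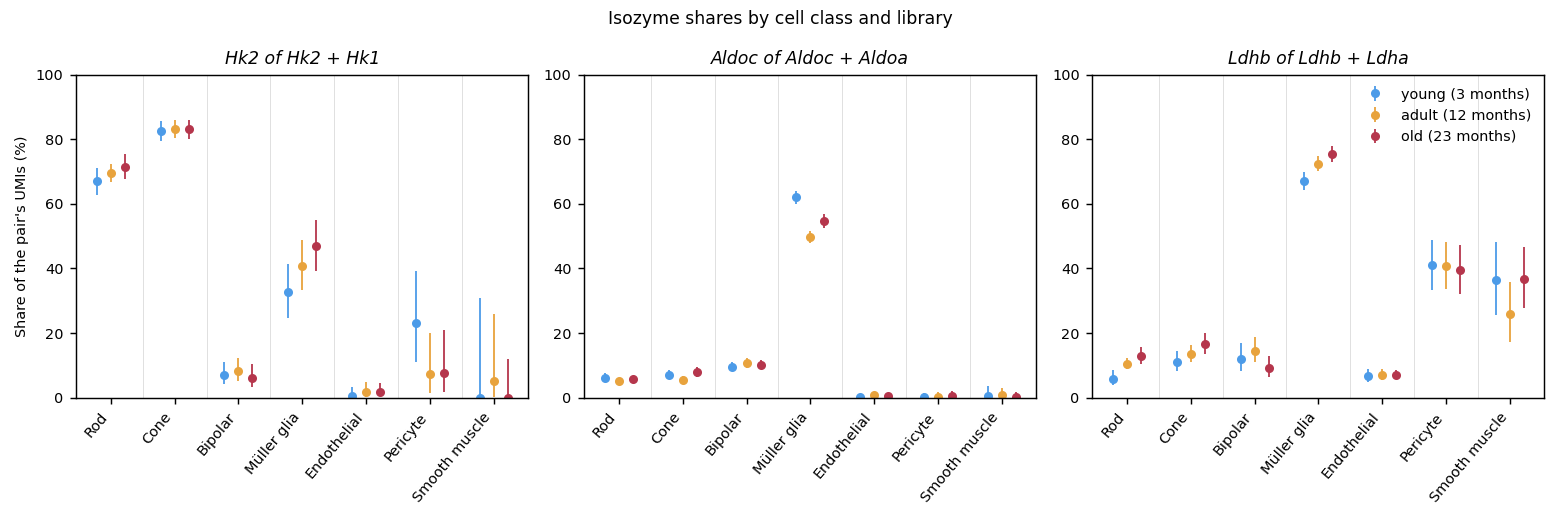
Share (y axis, percent) of Hk2 in the Hk1 and Hk2 UMIs, of Aldoc in the aldolase UMIs and of Ldhb in the lactate dehydrogenase UMIs, by class, with 1 point per library and bars for the exact 95% interval. Hk2 makes up 67.1% or more of the pair in rods and cones, Aldoc 49.7% or more in Müller glia and Ldhb 67.0% or more in Müller glia and 25.8 to 41.0% in mural cells.

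Within classes the clusters differed in the enzymes too. These clusters were drawn from the same cells, so their values are descriptions. Among bipolar cells the main division was between the cluster led by Pcp2 and Prkca (240 cells), which met all 4 rod bipolar markers, and the cluster led by Cck, Reln and Vsx1 (164 cells), which met 5 of 8 bipolar and 2 of 4 cone bipolar markers. With the 3 libraries summed, Ldha stood at 131 and 511 CPM in these clusters, Aldoa at 957 and 2062 CPM, Aldoc at 46.2 and 328 CPM and Pkm at 536 and 1179 CPM. Ldhb was almost missing from both, with 2 UMIs in the first cluster and 25 in the second. It was carried by a pair of small bipolar clusters led by Slit2 (46 cells) and by Neto1 (18 cells), at 234 and 202 CPM, where it made up 44.7% (35.7 to 53.9) and 45.5% (33.1 to 58.2) of the pair. The bipolar class thus averaged clusters with Ldhb shares from 0.766 to 45.5%.

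Müller glia formed a cluster led by Rlbp1 (489 cells) and one led by Utp14b (115 cells). Gapdh stood at 1905 and 351 CPM, Aldoc at 871 and 180 CPM and Ldhb at 600 and 111 CPM in turn, while Hk1 stood at 52.4 and 53.5 CPM. The Utp14b cluster had a median UMI count of 0.544 of its libraries' median. It held 18.2, 15.7 and 23.2% of Müller glia in the young, adult and old library.

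Endothelial cells formed a large cluster (1085 cells) and a cluster led by Gkn3 and Sema3g (180 cells), genes known from arterial endothelium. Ldhb stood at 16.0 CPM in the large cluster and at 39.0 CPM in the Gkn3 cluster, or 5.43% (4.58 to 6.39) and 15.3% (12.1 to 19.0) of the pair. Pkm stood at 374 and 248 CPM and Ldha at 279 and 216 CPM. The Gkn3 cluster formed 10.1, 13.4 and 19.6% of endothelial cells in the young, adult and old library, so a class value by age also carries this shift.

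**Figure D3:**
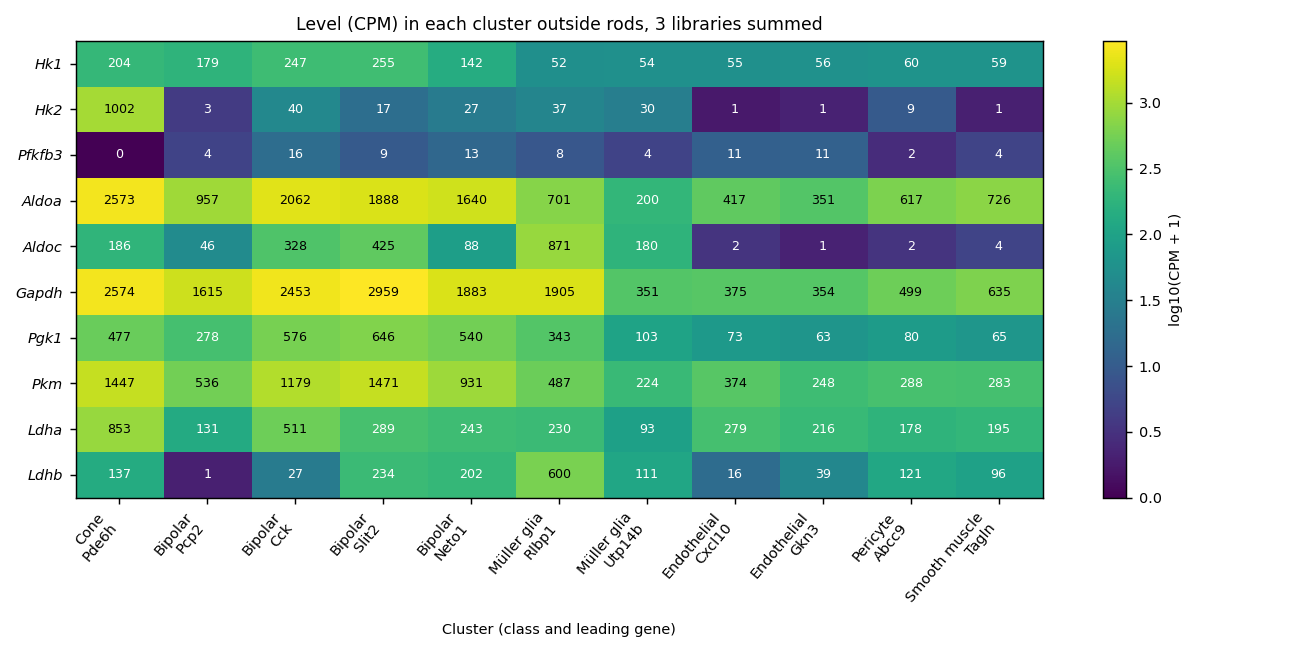
Level (CPM, printed in each cell, with colour on a log10 scale) of the 10 enzymes in the 11 clusters that make up the classes other than rods, with the 3 libraries summed. Bipolar clusters range from 1.01 to 234 CPM in Ldhb, and the Utp14b cluster of Müller glia is lower than the Rlbp1 cluster in Gapdh, Aldoc and Ldhb but not in Hk1.

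The ages were compared as ratios of CPM between libraries, for members with at least 50 UMIs over both libraries. A value past 1.5-fold either way is counted below beside the share of all genes past it. In endothelial cells all 8 members measured were higher in the old than in the young library, beside 53.4% of all genes. Of them 6 had an interval above 1, beside 11.9% of all genes. Intervals narrow with the UMI count, which was a median of 1173 for these members and 223 over all genes. The shares of all genes with an interval above 1, here and below, therefore rest on fewer UMIs per gene than the counts of members. No share is given for intervals below 1. Aldoa went from 317 to 409 and 482 CPM, an old to young ratio of 1.52 (1.41 to 1.64). Ldha went from 202 to 268 and 329 CPM, a ratio of 1.63 (1.48 to 1.80). Ldhb went from 14.5 to 19.95 and 24.7 CPM, a ratio of 1.70 (1.18 to 2.47). The ratios of Pkm at 1.30 (1.20 to 1.41), Gapdh at 1.254 (1.16 to 1.36) and Pgk1 at 1.24 (1.04 to 1.49) were smaller, and those of Hk1 at 1.11 (0.906 to 1.37) and Pfkfb3 at 1.05 (0.653 to 1.70) had intervals that held 1. The median log2 ratio of the 8 members was 0.35, beside 0.02 over 8965 genes. Past 1.5-fold were 3 of 8, beside 8.14% of all genes, and from adult to young 0 of 8, beside 4.35%.

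Aldoa and Ldha were higher in the old library in both endothelial clusters, although the interval of Ldha held 1 in the smaller. In the large cluster the old to young ratio was 1.59 (1.46 to 1.73) for Aldoa and 1.73 (1.56 to 1.92) for Ldha, and in the Gkn3 cluster 1.33 (1.07 to 1.67) and 1.29 (0.984 to 1.69). Over the alternatives tried, Ldha kept a ratio of 1.51 to 1.68 and Aldoa one of 1.39 to 1.53. With classes drawn from each cell's own markers 1 of 8 members was past 1.5-fold, beside 6.47% of all genes, and after thinning to 2000 UMIs per cell 1 of 6, beside 9.75%. Ldhb rested on 47 young and 89 old UMIs, and after thinning its ratio was 0.803. Other measures moved with age in the same cells. The median UMI count per endothelial cell was 5669, 6016 and 7496. Summed markers of Müller glia (8 of 8 above 0) were at 720, 889 and 1085 CPM, of rods (8 of 8) at 50.3, 93.8 and 113 CPM, of pericytes (8 of 8) at 2005, 2004 and 1228 CPM and of red blood cells (5 of 5) at 558, 200 and 1406 CPM. Rod RNA would account for 3.32, 7.28 and 8.50 CPM of Aldoa and 1.04, 2.17 and 2.58 CPM of Ldha. The part of the other measures in the difference was not tested.

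In bipolar cells 7 of 8 members were higher in the old than in the young library, beside 52.0% of all genes. Of them 6 had an interval above 1, beside 8.87% of all genes. Ldha stood at 188, 240.3 and 351 CPM, an old to young ratio of 1.86 (1.57 to 2.23). Pkm, Pgk1, Gapdh and Aldoa had ratios of 1.26 to 1.33 and Aldoc one of 1.36 (1.08 to 1.70) that turned to 0.967 under the stricter cell filter, while Hk1 was at 0.925 (0.759 to 1.13). Past 1.5-fold were 1 of 8 from old to young, beside 9.12% of all genes, and 1 of 8 from adult to young (Ldhb, 1.59, 0.984 to 2.61), beside 6.41%. In the Pcp2 cluster alone Ldha stood at 83.4, 114 and 207 CPM, a ratio of 2.48 (1.80 to 3.46), and Aldoa had a ratio of 1.52 (1.36 to 1.70). In the Cck cluster the ratio of Ldha was 1.56 (1.24 to 1.97) and that of Aldoa 1.12 (0.999 to 1.251). These clusters formed 52.7, 48.5 and 52.9% and 34.5, 35.3 and 35.3% of the class. The Slit2 and Neto1 clusters, which held most Ldhb, formed 9.09, 11.4 and 8.82% and 3.64, 4.79 and 2.94%, and the part of these shares in the Ldhb value was not tested.

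In rods 5 of 9 members were higher and 4 lower from old to young, beside 52.0% of all genes higher. Intervals lay above 1 for 2 members, beside 7.90% of all genes, and below 1 for 1. From adult to young 7 members were higher, beside 53.3% of all genes. Of them 6 had an interval above 1, beside 9.33% of all genes. From old to adult the members had a median log2 ratio of -0.14, beside -0.02 over 4017 genes. The one member past 1.5-fold from old or adult to young was Ldhb. It stood at 58.1, 124 and 137 CPM from 28, 123 and 84 UMIs, an old to young ratio of 2.35 (1.52 to 3.75) and an adult to young ratio of 2.13 (1.40 to 3.34). That is 1 of 9 members in each comparison, beside 10.9% of all genes from old to young and 11.1% from adult to young. Ldha did not go with it, at a ratio of 0.999 (0.881 to 1.13). Hk1 was lower in the old library, at 0.756 (0.604 to 0.946), and Gapdh higher at 1.22 (1.14 to 1.29). Markers of Müller glia, the class with most Ldhb, summed in rods to 494, 263 and 741 CPM with 0, 1 and 0 of 8 at 0, which is 2.65, 1.39 and 3.83% of their level in Müller glia. The part of such RNA in the rod values was not tested.

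In cones all 9 members measured were higher in the old library, beside 57.8% of all genes. An interval above 1 was found for 4 of them, beside 9.59% of all genes. Of these 4, Aldoa at 1.09 turned to 0.994 after thinning, 0.987 with free RNA subtracted and 0.986 with cells weighted equally, and it was 1.55 under the stricter cell filter and 1.20 with classes from each cell's own markers. That filter left 24 old and 17 young cones, and 4 of 8 members were past 1.5-fold, beside 40% of all genes. Hk1, Hk2 and Pgk1, whose intervals held 1, were below 1 under some alternatives. The members' median log2 ratio was 0.17, beside 0.07 over all genes. Ldhb was again past 1.5-fold at 1.81 (1.26 to 2.63), from 97.6, 137 and 177 CPM. Gapdh was at 1.246 (1.15 to 1.35) and Pkm at 1.20 (1.08 to 1.33). The counts were 1 of 9 from old to young, beside 10% of all genes, and 0 of 9 from adult to young, beside 8.19%. Markers of red blood cells were at 15057 CPM in young cones and at 31.3 and 26.1 CPM in adult and old cones, and their part in the ratios was not tested.

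In Müller glia 7 of 9 members were higher from old to young, beside 54.8% of all genes. Intervals lay above 1 for 5 members, beside 8.10% of all genes, and below 1 for 2. The members of the aldolase and lactate dehydrogenase pairs had ratios on opposite sides of 1. Ldhb stood at 472, 575 and 610.2 CPM, an old to young ratio of 1.29 (1.18 to 1.42), while Ldha stood at 232, 219 and 198 CPM, a ratio of 0.852 (0.731 to 0.992). Rod markers in Müller glia (none of 8 at 0) summed to 418, 1126 and 785 CPM, and the median UMI count per cell was 9176, 9468 and 6928. Aldoa stood at 568, 737 and 637 CPM, of which rod RNA would account for 27.5, 87.4 and 58.8 CPM. It had a ratio of 1.12 (1.03 to 1.23) and Aldoc one of 0.833 (0.772 to 0.899). Under a stricter cell filter, with classes from each cell's own markers, and without cells that carry markers of other classes, the Aldoc ratio was 1.16, 1.22 and 1.10. The 5 young cells with most Aldoc are those with Gfap and Pax2 described above. For Ldha, 70 of the 386 young UMIs lay in 5 cells with Gfap at 1458 and Pax2 at 146 CPM, while the 56 of 309 old UMIs in the 5 highest cells came with both at 0. The Ldha ratio ran from 0.768 to 0.989 over the alternatives. The part of these young cells in both ratios was not tested. Hk2 was the member past 1.5-fold, at 1.91 (1.30 to 2.84), from 43 and 77 UMIs with the uneven spread over cells given above, and its ratio ran from 1.42 to 6.79 over the alternatives. Past 1.5-fold were 1 of 9 members from old to young, beside 8.74% of all genes, and 0 of 9 from adult to young, beside 7.79%.

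In mural cells the counts were small. From old to young 6 of 7 members were higher in pericytes, beside 58.6% of all genes, and 5 of 5 in smooth muscle cells, beside 59.0%. In pericytes Hk1 was at a ratio of 1.69 (1.01 to 2.83) from 30 young and 36 old UMIs, and Ldha at 1.45 (1.09 to 1.93). That made 1 of 7 members past 1.5-fold from old to young, beside 11.9% of all genes, and 1 of 7 from adult to young, beside 9.12%. The Hk1 ratio was 1.48 with classes from each cell's own markers and 1.248 after thinning, below 1.5-fold in both. In pericytes smooth muscle markers (1 of 6 at 0 in each library) summed to 2649, 4812 and 4107 CPM and red blood cell markers (3, 1 and 1 of 5 at 0) to 20.03, 41.9 and 388 CPM, and their part was not tested. In smooth muscle cells Aldoa stood at 507, 826 and 833 CPM, a ratio of 1.64 (1.35 to 2.01), which was 1 of 5 members, beside 14% of all genes from old to young, and 1 of 5 from adult to young, beside 12.3%. The old to young ratio was 1.38 under the stricter cell filter and 1.497 with classes from each cell's own markers, below 1.5-fold in both. Pericyte markers in smooth muscle cells (none of 8 at 0) summed to 9301, 8436 and 4715 CPM and their own markers to 26674, 32543 and 33626 CPM, and the part of these shifts was not tested. No enzyme was past 1.5-fold in all classes. Ldhb had an old to young ratio above 1 in all 7 classes, from 1.22 in smooth muscle cells to 2.35 in rods. Its interval lay above 1 in rods, cones, Müller glia and endothelial cells, where 7.90 to 11.9% of all genes had such an interval. The ratio was also above 1 in all 7 classes for Aldoa (1.03 to 1.64), Gapdh (1.07 to 1.29) and Pkm (1.05 to 1.36). Of all genes 52.0 to 59.0% were higher in a class, and the share higher in all 7 classes was not computed. Pkm stayed above 1 in every class under every alternative computed, while Aldoa turned below 1 in cones and Gapdh in pericytes (0.984 with cells weighted equally). The Ldhb ratio turned below 1 in endothelial cells after thinning (0.803) and in smooth muscle cells with classes from each cell's own markers (0.865). In smooth muscle cells it was 4.62 after thinning, from 9 old and 2 young UMIs. These are comparisons of the same pair of libraries, so they share their preparations.

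**Figure D4:**
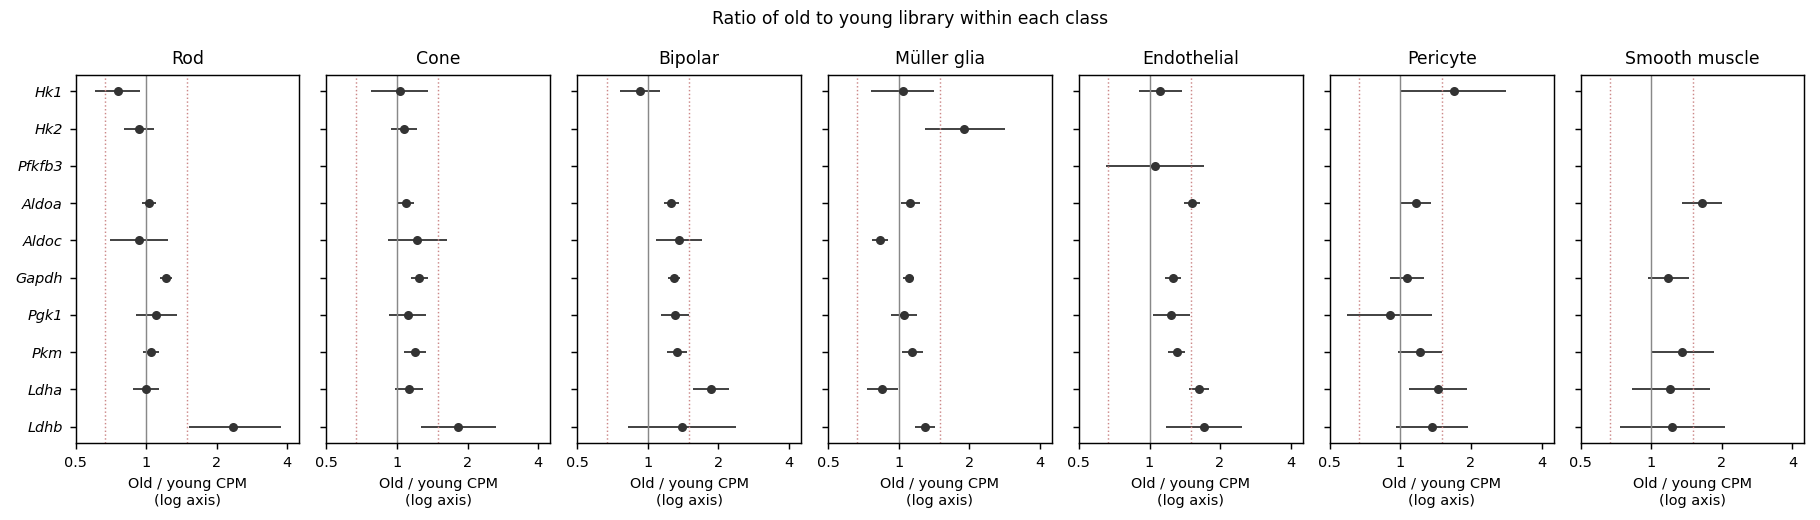
Ratio of old to young CPM (x axis, log scale) of each measured member in each class, with exact 95% intervals of counting error, a grey line at 1 and dotted lines at 1.5-fold either way. All 8 points of endothelial cells lie right of 1, and the Ldhb points of rods (2.35) and cones (1.81) stand apart from the other members of those classes.

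A wider list of 42 genes placed the 10 enzymes among transporters, the other steps, regulators and the entry of pyruvate into mitochondria. All 42 were found, and 14 reached a mean of 100 CPM in some class. Of the 7 transport genes, the 3 that reached 100 CPM were highest in endothelial cells, and the other 4 were highest in bipolar or smooth muscle cells at 39.8 CPM or less. Slc2a1, the glucose transporter GLUT1 of the blood-retina barrier, had a mean of 1327 CPM there and 333 in Müller glia, the next class. Slc16a1, the lactate and pyruvate transporter MCT1, had 832 CPM in endothelial cells and 226 in rods. Bsg, the partner that brings lactate transporters to the membrane, had 14363 CPM in endothelial cells and 2838 in Müller glia. Endothelial cells were therefore highest in these 3 transport genes and had the lowest mean of the summed enzymes.

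Of the other steps, Eno1 was led by Müller glia at 3197 CPM, with rods at 1250.4 CPM, so that Müller glia led in this enolase as well as in Aldoc and Ldhb. Eno1 has a near-identical copy in the mouse genome, which makes its level uncertain in the same way as that of Gapdh. Eno2, the neuronal enolase, was led by cones at 238 CPM. Bipolar cells led in Tpi1 at 945 CPM and in the phosphofructokinase Pfkp at 423 CPM, and in Pgam1 at 1036 CPM, where they overlapped rods at 909 CPM. Rods led in the phosphofructokinase Pfkl at 231 CPM and overlapped bipolar cells in Gpi1 (438 and 431 CPM) and in the hypoxia factor Hif1a (492 and 490.5 CPM). Of the pyruvate genes, the mitochondrial carrier genes Mpc1 (185 CPM) and Mpc2 (274 CPM) had their highest means in Müller glia and overlapped the next class, and Pdha1, of pyruvate dehydrogenase, was highest in pericytes at 114 CPM.

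**Figure D5:**
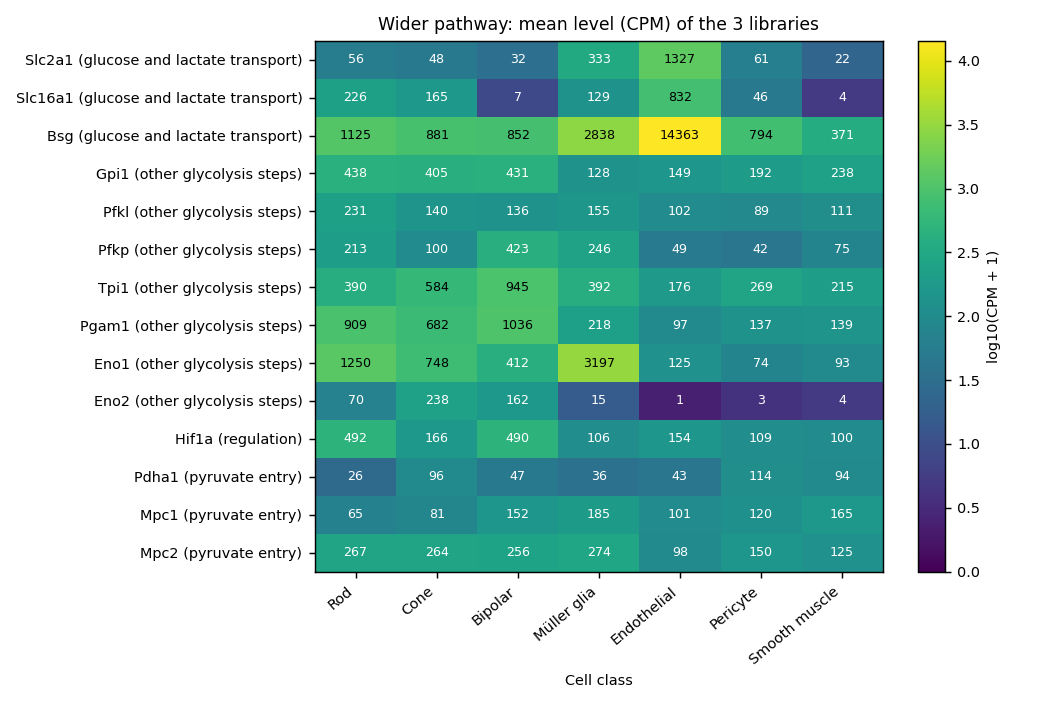
Mean level over the 3 libraries (CPM, printed in each cell, with colour on a log10 scale) of the 14 wider pathway genes that reach 100 CPM in some class, by cell class. The transporters Slc2a1, Slc16a1 and Bsg are highest in endothelial cells (1327, 832 and 14363 CPM), and Eno1 is highest in Müller glia (3197 CPM).

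Between old and young the wider list gave few values past 1.5-fold, and they are set beside the shares of all genes given above. The median log2 ratio of the list was 0.28 in endothelial cells and 0.27 in bipolar cells, beside 0.02 over all genes in both, and between -0.03 and 0.20 in the other classes. In endothelial cells 1 of 21 measured genes was past it (all genes 8.14%), in Müller glia 0 of 18 (8.74%), in cones 0 of 15 (10%) and in pericytes 1 of 14 (11.9%), and both past values had intervals that held 1. In bipolar cells 3 of 19 were (9.12%). They were Slc2a1 at 1.70 (1.02 to 2.86), Slc2a3, a glucose transporter of neurons, at 1.81 (1.04 to 3.21) and Slc16a3, the lactate transporter MCT4, at 2.15 (1.23 to 3.86), each from 21 to 40 UMIs per library. In rods 2 of 15 were (10.9%), both lower, and Pfkfb2, which like Pfkfb3 controls phosphofructokinase, went from 76.8 to 30.9 CPM, a ratio of 0.403 (0.219 to 0.719). In smooth muscle cells 2 of 11 were (14%), with Pfkl at 2.39 (1.39 to 4.27) from 19 and 53 UMIs.

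The genes whose levels ran most like each member were sought among 7187 genes over the 21 values of 7 classes in 3 libraries, by Pearson's r of log2(CPM + 10), as a description. The points of a library share its preparation. Hk2 ran with AI847159 (r = 0.988) and with Rgs9 (0.987), the gene of a photoreceptor signalling protein. Hk1 ran with Usp33 (0.980) and Lrit2 (0.973), Aldoa with Hmgn1 (0.977) and Zfp444 (0.967), and Gapdh with Hsp90aa1 (0.976) and Hmgn2 (0.963). Pkm ran with Elovl4 (0.984), a fatty acid elongase, and Tma7 (0.981), Ldha with Impg1 (0.961), a gene of the matrix around photoreceptors, and Gm17231 (0.960), and Pgk1 with Kif21a (0.984) and E130218I03Rik (0.978). Aldoc ran with Ncam1 (0.989) and Rtn4 (0.981). Ldhb ran with Hopx (0.904) and Tspan3 (0.876), and the sparse Pfkfb3 with Anks1 (0.812) and Lhfpl2 (0.749). Among the members, Aldoa and Pkm ran most closely together (r = 0.942), while Ldhb was near 0 with Ldha (0.031) and with Pkm (0.050).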

How the data were processed

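Retina was dissociated, enriched for CD31 and sequenced as 10x 3' libraries, 1 per age. The authors aligned the reads to mm10 with Cell Ranger 6.1.2 and deposited filtered matrices of UMI counts per gene and cell, with no normalization. Barcodes with 500 to 6000 genes and 1 to 20% mitochondrial UMIs were kept, and doublets were called with scanpy 1.11.5 and removed (8, 17 and 12 cells). Cells were clustered with Seurat 5.3.0 in R 4.3.3 on 2000 variable genes and 30 components at resolution 0.5. A name needed at least 3 markers, each seen in 20% of the cluster's cells and at 25% of the highest cluster's level. Meeting this was not always enough. The Gm26917 cluster (238 cells) met all 8 endothelial markers but was left unnamed and out of the endothelial class. Its median UMI count was as low as 0.291 of a library's median, and no marker was among its leading genes. Counts were summed per class and library and given as CPM. Intervals are exact Poisson, Clopper-Pearson or conditional binomial ones at 95% (scipy 1.17.1), and cover counting error only. Ratios needed 50 UMIs over both libraries. With 1 library per age no test was possible. The scripts were tested on simulated counts. Positions are from GENCODE M21 on GRCm38, where 32235 of 32285 identifiers matched. The members, lists and markers were chosen with earlier results of these data known. A comparison of clusters within rods is not reported here.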

Additional observations from a re-analysis of the deposited data

Results flagged for a closer look

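The 9 values below come from clusters that belong to none of the 7 classes, and each was above the highest level of that gene in any class and library. The cluster led by Snhg11, which met 4 of 5 amacrine markers (51 cells), had Pgk1 at 777 CPM and Ldhb at 668 CPM. The unnamed cluster led by Grik1 (108 cells) had Pgk1 at 710.3 CPM and Pfkfb3 at 14.6 CPM. The cluster led by Ttr, which met all 5 pigment epithelium markers and had 55 of its 63 cells in the old library, had Ldhb at 653 CPM. The cluster led by the lens crystallin gene Crygs, whose 36 cells all came from the adult library, had Aldoc at 2364 CPM and Pfkfb3 at 19.9 CPM. Pfkfb3 stood at 29.5 CPM in the cluster led by S100a9, which mixed myeloid and T cell markers, and at 15.5 CPM in the unnamed cluster led by Gm26917. The Gm26917 cluster (238 cells) met all 8 endothelial markers, with a median UMI count of 0.351 of its libraries' median. None of these values was tested.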

How the results depend on the processing

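No paired analysis was possible because each group has 1 library and they share only replicate number 1. Of the isozyme share differences and the counts of members past 1.5-fold, 214 values under the alternatives stayed within their spread or within 1.5 times the reported count, 53 moved further and 1 changed sign. Of the age ratios whose interval lay clear of 1, 8 values turned to the other side of 1, all given below. The reported mean difference of rods from Müller glia was 29.3 percentage points for the Hk2 share and -62.0 points for the Ldhb share, and the difference of rods from endothelial cells was 68.1 points for Hk2 and 2.84 points for Ldhb. The cause of the moves was not tested.

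With 1000 to 6000 genes and 1 to 10% mitochondrial UMIs, the Ldhb difference from Müller glia was -63.5 points. Members past 1.5-fold, with the share of all genes past it under the same alternative, were then 4 in cones (40%), 2 in pericytes (13.4%) and 0 in smooth muscle (14.3%) from old to young, and 1 each in cones (22.6%) and Müller glia (7.25%) from adult to young, while Aldoc ratios turned to 0.967 in bipolar cells and 1.16 in Müller glia. With classes from each cell's own markers, the Ldhb difference was -58.3 points from Müller glia and -2.90 points from endothelial cells. Old to young counts were 0 in Müller glia (8.82%), 1 in endothelial cells (6.47%) and 0 in pericytes (9.99%), adult counts 1 in cones (8.82%) and 3 in Müller glia (14.9%), and the Aldoc ratio in Müller glia was 1.22. Without cells that carry markers of other classes, the differences from Müller glia were 42.2 (Hk2) and -65.7 points (Ldhb), the counts 2 and 0 in bipolar cells (old 11.1%, adult 6.65%) and 0 in Müller glia (old, 9.20%), where Hk2 was at 6.79 but under 50 UMIs, and the Aldoc ratio in Müller glia 1.10.

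Thinned to 2000 UMIs per cell, the Hk2 difference was 35.9 points and counts were 0 in cones (11.7%), 3 in bipolar cells (10.7%; adult 0, 6.59%), 0 in Müller glia (9.44%) and 1 in endothelial cells (9.75%). Ldhb in cones (2.94) and Hk2 in Müller glia (1.89) stayed past 1.5-fold and left the count through the minimum of 50 UMIs. The ratios turned to 0.994 for Aldoa in cones and 0.803 for Ldhb in endothelial cells. With free RNA subtracted, the differences were 67.9 and -65.0 points, counts 0 (old, 11.6%) and 1 (adult, 13.7%) in Müller glia and 2 in smooth muscle (adult, 13.3%), and the Aldoa ratio in cones 0.987. That profile assigned 37.4 to 77.4% of Müller UMIs to free RNA, and the Hk2 ratio there could not be computed. With each cell weighted equally, the Ldhb difference was -63.9 points, adult counts 0 in bipolar cells (9.15%) and 1 in Müller glia (12.6%), and the Aldoa ratio in cones 0.986. Without doublet removal the old count in Müller glia was 0 (8.34%).

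Alternatives chosen after seeing the data followed. Without the Rp1 rod and Utp14b Müller clusters, the Ldhb difference from Müller glia was -60.9 and the Hk2 difference from endothelial cells 64.1 points. With the Grik1 cluster as bipolar, 2 members were past 1.5-fold there (old, 8.37%). With RNA of rods or endothelial cells subtracted, the differences from Müller glia were 36.8 and -63.6 points. Summing both Aldoa identifiers moved no such value.

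At a planned threshold of 25% above 1, counts from old and adult to young, with the share of all genes past it, were 2 and 2 in rods (34.0 and 36.3%), 7 and 2 in bipolar cells (31.8 and 24.8%), 2 and 3 in Müller glia (28.7 and 26.3%), 5 and 3 in endothelial cells (25.7 and 18.6%), 3 and 4 in pericytes (35.1 and 31.4%), 2 and 2 in smooth muscle (39.0 and 36.1%) and 1 in cones (adult, 29.2%). With at least 20 UMIs, they were 2 in Müller glia (old, 15.8%) and 3 and 2 in smooth muscle (24.9 and 23.5%). The values of Pfkfb3 outside endothelial cells and of Hk2 outside photoreceptors rest on few UMIs.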
